A study of Rattus norvegicus with 3 samples.

Results

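The splicing regulator RNA-binding proteins described here are 75 genes of 15037 named on rat whole-transcript arrays. They were chosen by symbol as the Srsf, Tra2, Hnrnp, Rbm, Ptbp, Celf, Mbnl, Rbfox, Khdrbs, Nova and Esrp families and Qki. Of these 75, 58 had a mean log2 signal above 7.6 and are called expressed, and 17 did not. The arrays hold RNA of the rat keratinocyte line FRSK, which came from fetal skin, after 24 h with 100 nM Met-enkephalin (Met-ENK), after 24 h with 100 nM of the β-endorphin fragment β-END(1-9), or without stimulation (control). All cultures were grown in DMEM with serum. The sources used here do not say whether the control received vehicle. Each condition has 1 array, so no spread between cultures can be estimated, no test was possible, and every difference below is one between 2 single arrays. Each value is the authors' log2 signal of 1 probe set. Signals of different genes come from different probes and do not order their mRNA amounts.

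SR proteins carry a domain rich in arginine and serine dipeptides, bind exonic enhancers and mostly promote use of the exon they bind. The hnRNPs and the PTB proteins often bind silencers and repress exons, and the CELF, MBNL, RBFOX, ESRP, QKI and NOVA proteins act as enhancers or silencers depending on where they bind relative to the exon. In epithelia the ESRP proteins maintain epithelial isoforms of genes such as Fgfr2, Cd44 and Ctnnd1, while neuronal tissue is known for NOVA, several RBFOX and CELF proteins and Ptbp2. Many SR protein and hnRNP genes limit their own mRNA through poison exons, whose inclusion leads to nonsense-mediated decay. One signal per gene does not separate such isoforms, and it measures neither splicing nor protein phosphorylation. In a whole culture, fewer cells of a type and less RNA per cell cannot be told apart.

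In 4 expressed members a difference reached 1.5-fold (0.58 on the log2 scale) in a comparison, and in the other 54 none did. Those 4 were Ptbp2 and Srsf5, which differed most between the peptides, and Srsf2 and Rbm3, which were lower with Met-ENK than in control. For Met-ENK minus control, 2 of 58 members (3.45%) were at least 1.5-fold lower, against 5.81% of 6243 expressed genes, and 0 were higher, against 0.352%. The member median and the median of all expressed genes were both 0.00. For β-END(1-9) minus control, 1 of 58 (1.72%) was lower, against 1.81%, and 0 were higher, against 0.208%, with medians of -0.04 for members and -0.04 for all. For Met-ENK minus β-END(1-9), 2 of 58 (3.45%) were higher, against 1.63%, and 0 were lower, against 2.37%, with medians of 0.01 and 0.00. Each share of members rests on at most 2 genes. Within 0.32 of control on the log2 scale lay 86.2% of the members with Met-ENK, against 79.8% of all expressed genes, and 89.7% with β-END(1-9), against 87.3%. The 2 peptide comparisons share the control array.

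**Figure D1:**
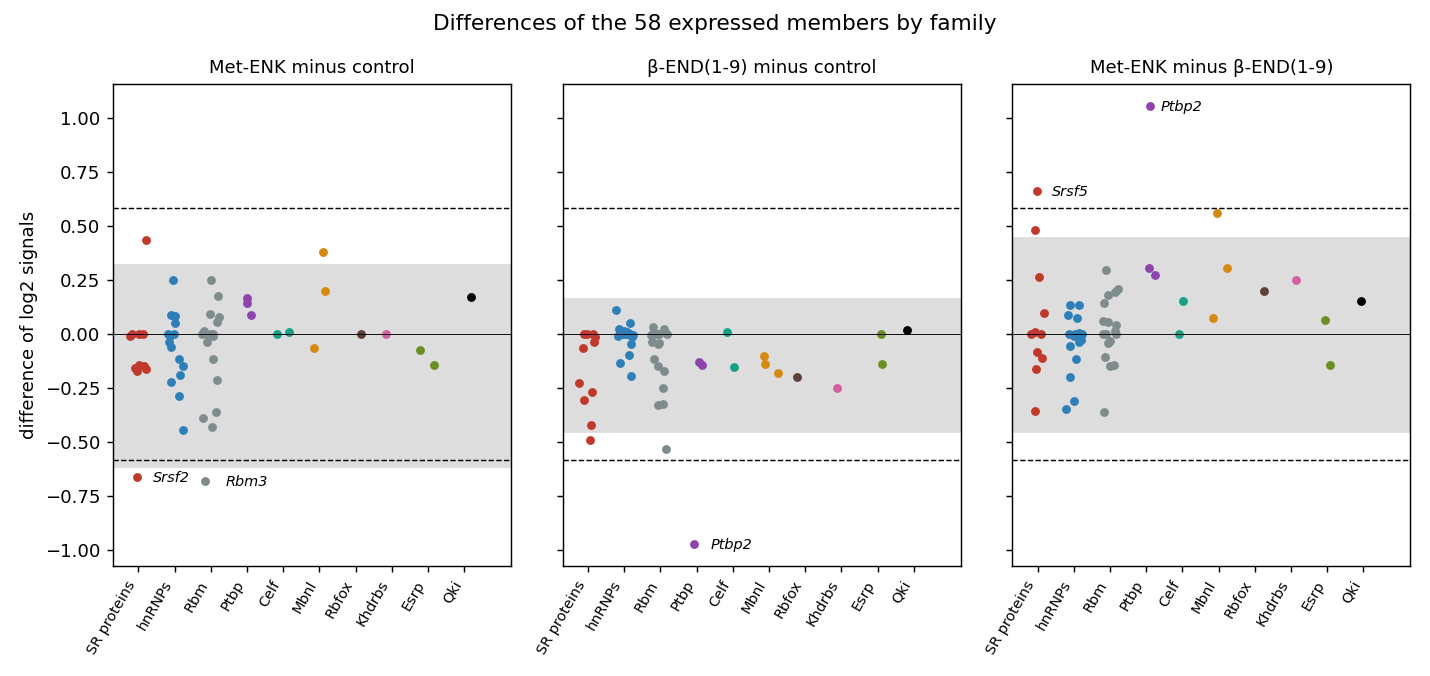
Differences of log2 signals for the 58 expressed members by family (horizontal axis), in 3 panels for Met-ENK minus control, β-END(1-9) minus control and Met-ENK minus β-END(1-9), with dashed lines at 1.5-fold and a grey band from the 5th to the 95th percentile of all 6243 expressed genes. Srsf2 and Rbm3 lie below the dashed line in the first panel, Ptbp2 in the second, and Ptbp2 and Srsf5 lie above it in the third.

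The promoters of these 4 genes, from 250 bases before to 50 after the annotated start (RefSeq, GRCr8, in the direction of the gene), are shown because the results below turn on these genes. Capitals mark matches on either strand to 7 motifs: the CRE core TGACG, the GC box GGGCGG, the CCAAT box CCAAT, the TATA box TATAAA, the ETS core CCGGAAG, the E-box CACGTG, and TCCCCGCC, a mild cold response element known from mouse Cirbp.
Ptbp2 (chr2:210558228-210558527, minus strand): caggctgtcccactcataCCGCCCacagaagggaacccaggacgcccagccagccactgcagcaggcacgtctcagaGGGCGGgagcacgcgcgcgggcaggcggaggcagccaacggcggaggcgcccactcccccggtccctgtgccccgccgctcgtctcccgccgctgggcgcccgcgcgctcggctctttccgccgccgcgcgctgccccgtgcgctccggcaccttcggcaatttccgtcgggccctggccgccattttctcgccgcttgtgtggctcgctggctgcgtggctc
Srsf5 (chr6:106336506-106336805, plus strand): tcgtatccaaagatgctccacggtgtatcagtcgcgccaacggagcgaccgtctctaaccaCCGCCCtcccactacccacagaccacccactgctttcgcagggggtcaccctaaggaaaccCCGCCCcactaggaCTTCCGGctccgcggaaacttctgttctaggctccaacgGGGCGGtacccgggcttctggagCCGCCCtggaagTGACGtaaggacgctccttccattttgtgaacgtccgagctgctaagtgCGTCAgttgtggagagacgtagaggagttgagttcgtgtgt
Srsf2 (chr10:102554092-102554391, minus strand): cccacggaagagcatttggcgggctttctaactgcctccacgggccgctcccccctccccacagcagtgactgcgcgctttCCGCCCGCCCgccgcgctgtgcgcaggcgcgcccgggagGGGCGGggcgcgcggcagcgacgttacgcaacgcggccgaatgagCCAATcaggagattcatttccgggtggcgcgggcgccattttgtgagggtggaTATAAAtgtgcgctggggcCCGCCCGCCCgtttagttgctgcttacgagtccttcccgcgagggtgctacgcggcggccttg
Rbm3 (chrX:17020655-17020954, plus strand): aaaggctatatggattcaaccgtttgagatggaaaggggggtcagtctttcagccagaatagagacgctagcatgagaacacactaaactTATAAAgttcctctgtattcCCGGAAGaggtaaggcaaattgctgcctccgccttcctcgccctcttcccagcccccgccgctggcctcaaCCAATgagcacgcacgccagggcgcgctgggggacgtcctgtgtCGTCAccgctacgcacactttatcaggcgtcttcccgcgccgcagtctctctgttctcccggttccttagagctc
The GC box and the cold response element can overlap in C-rich stretches, and adjoining GC boxes overlap each other in the Srsf2 window.

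These windows differ in what they hold. The Srsf2 promoter has 5 GC box matches, a CCAAT box and a TATA box 32 bases before the start. The Srsf5 promoter has 4 GC box matches, an ETS core and 2 CRE cores, 1 at 40 bases before and 1 at 10 bases after the start. In the Rbm3 window a CRE core lies 25 bases before the start, with a CCAAT box, an ETS core and a TATAAA stretch 160 bases before it. The Ptbp2 window has 2 GC box matches and none of the other motifs, and is 74.3% G and C, against 56.3% in the Rbm3 window. The E-box and the cold response element were found in none of the 4. A RefSeq promoter was matched for 51 of the 58 expressed members. The CRE core stood in 52.9% of these 51, against 35.9% of 5303 expressed genes with a promoter and 22.0% of all 27457 promoters. For the CCAAT box these shares were 56.9%, 38.4% and 37.7%, and for the TATA box 11.8%, 6.11% and 14.3%. By these counts the share in members lay above that in expressed genes for all 3, with the TATA box found in 6 of the 51 promoters. Member promoters also held more CG pairs (median 28, against 23 in expressed genes), and the CRE core contains CG. The part of this composition in the CRE share was not tested. The GC box stood in 60.8% of members, against 66.6% of expressed genes and 34.9% of all promoters. The ETS core had shares of 17.6%, 21.8% and 9.22% in the same order, the E-box 13.7%, 10.4% and 6.65%, and the cold response element 7.84%, 9.54% and 5.06%. These are letter matches and not shown binding sites.

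The keratinocyte label was checked against marker genes. Of 14 listed keratinocyte markers, 9 were measured and all 9 were expressed, among them Krt14 at 16.61 with Met-ENK, 16.63 with β-END(1-9) and 16.70 in control. In 0 of the 9 did a difference reach 1.5-fold. Of all expressed genes, 5.81% were lower than control with Met-ENK and 1.81% with β-END(1-9), and between the peptides 1.63% were higher and 2.37% lower. Over 9 genes nothing is read from this count. The marker median was 0.12 for Met-ENK minus control, -0.07 for β-END(1-9) minus control and 0.26 for Met-ENK minus β-END(1-9), against 0.00, -0.04 and 0.00 over all expressed genes. Between the peptides Lamb3, a laminin chain of the basement membrane, differed by 0.58, just under the limit, the integrin gene Itga6 by 0.48 and the basal keratin gene Krt15 by -0.54. The part of these marker differences in the results was not tested. The epithelial splicing regulators Esrp1 and Esrp2 were expressed too, and so were Qki and Hnrnpm, known for mesenchymal splicing. The label is therefore not read from these members. Of 10 neuron markers, 8 did not exceed the highest background probe set on any array, and the same held for 6 of 6 muscle markers, 5 of 7 fibroblast markers and 4 of 5 immune markers measured. The exceptions were Tubb3 and Map2 of the neuron list, Col1a1 and Col3a1 of the fibroblast list and Cd74 of the immune list. The median log2 signals of the arrays over 23188 transcript clusters were 5.96 for Met-ENK, 5.97 for β-END(1-9) and 5.93 for control.

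**Figure D2:**
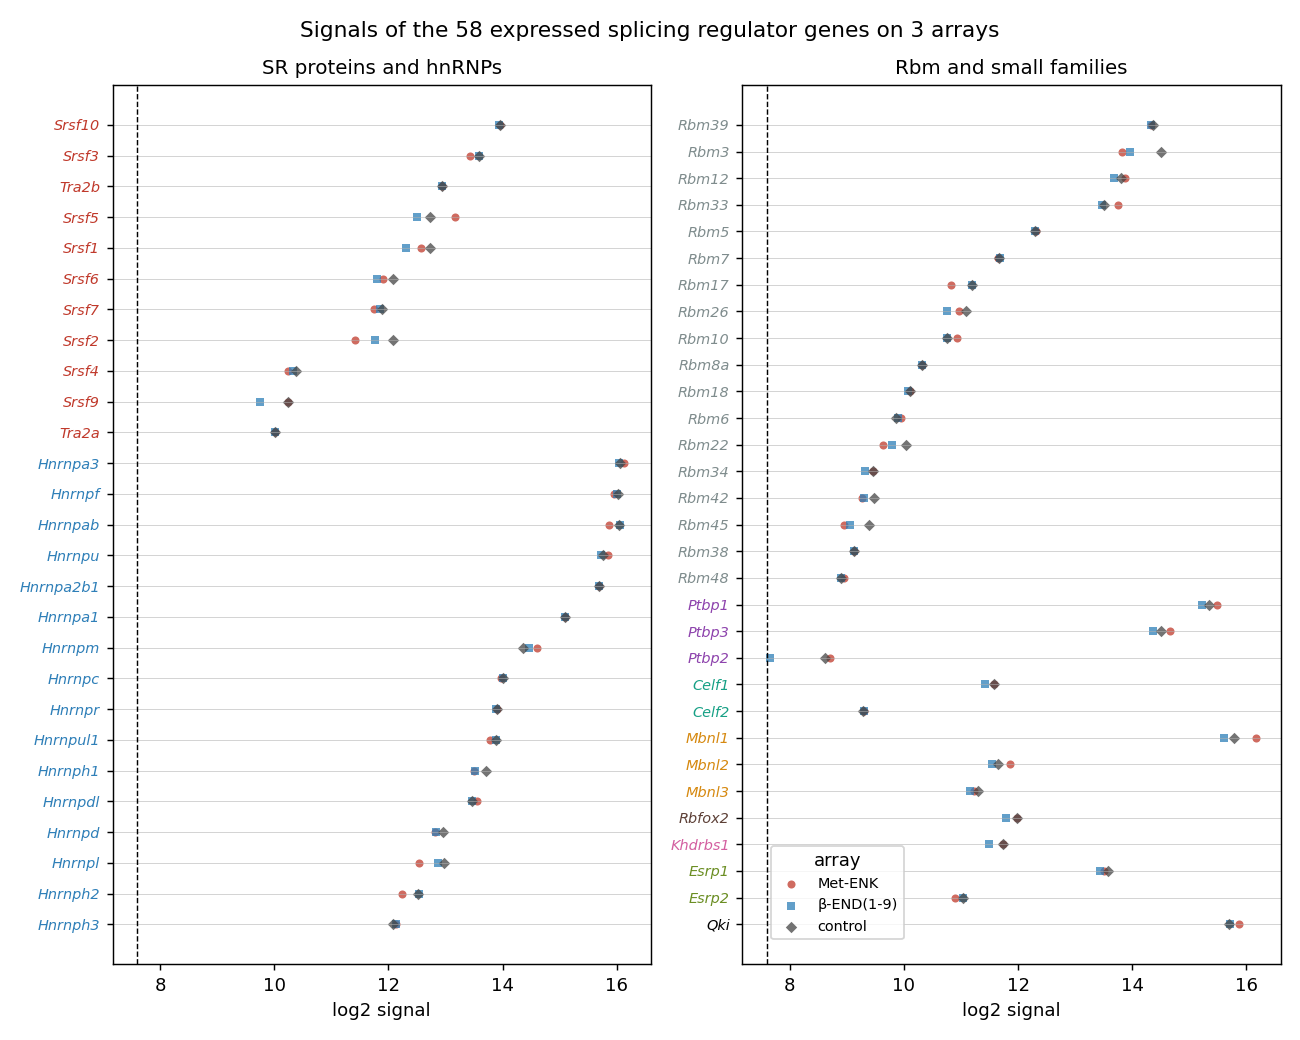
Log2 signals (horizontal axis) of the 58 expressed members on the Met-ENK array (circles), the β-END(1-9) array (squares) and the control array (diamonds), with a dashed line at 7.6 and gene names coloured by family. For most genes the 3 symbols overlap, while Ptbp2, Srsf5, Srsf2, Rbm3 and Mbnl1 are spread apart.

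Ptbp2, the neuronal paralogue of polypyrimidine tract binding protein, had the widest spread of any expressed member. Its log2 signal was 8.71 with Met-ENK, 7.65 with β-END(1-9) and 8.62 in control. The β-END(1-9) array alone was low, and the other two nearly coincided. Ptbp2 is also the expressed member nearest to the limit of 7.6. Its β-END(1-9) signal lay just above the highest of the 23 background probe sets, 7.57, so this lower value cannot be set apart from background by level, and the size of a difference from it is not exact. As deposited, the differences were -0.97 for β-END(1-9) minus control and 1.06 for Met-ENK minus β-END(1-9).

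The other PTB genes had high signals and small differences. Ptbp1, the general splicing repressor that is known to hold Ptbp2 mRNA down through skipping of an exon, had 15.49 with Met-ENK, 15.22 with β-END(1-9) and 15.35 in control. Ptbp3, a further paralogue known from blood cells, had 14.66, 14.36 and 14.50 in the same order. In all 3 PTB genes the Met-ENK array was highest and the β-END(1-9) array lowest, and the Met-ENK minus β-END(1-9) differences of Ptbp1 and Ptbp3 were 0.27 and 0.31. That order was found in 11 of the 58 expressed members (19.0%), against 16.5% of all expressed genes, and over 3 genes nothing is read from it. Raver1, a corepressor of PTBP1 from the list of other splicing regulators, had 8.32 with Met-ENK, 8.78 with β-END(1-9) and 9.25 in control.

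**Figure D3:**
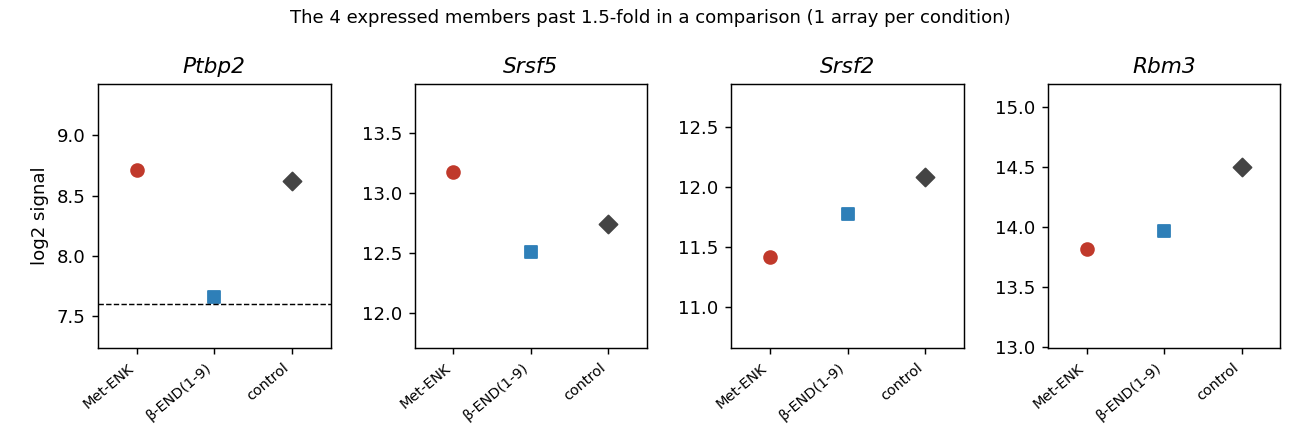
Log2 signals of Ptbp2, Srsf5, Srsf2 and Rbm3 on the 3 arrays, each panel spanning the same height of 2.2 log2 units, with the limit of 7.6 dashed for Ptbp2. Ptbp2 is low with β-END(1-9) alone (7.65), Srsf5 is high with Met-ENK (13.17), and Srsf2 and Rbm3 are highest in control (12.08 and 14.50).

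Among the SR proteins, 12 genes were measured and 11 expressed. Srsf5, an SR protein known to respond to growth signals, had 13.17 with Met-ENK, 12.51 with β-END(1-9) and 12.74 in control. The peptide arrays lay on opposite sides of control, at 0.44 for Met-ENK and -0.23 for β-END(1-9), and differed from each other by 0.66 (1.58-fold). Srsf2, also called SC35 and known as a component of nuclear speckles, had 11.42 with Met-ENK, 11.77 with β-END(1-9) and 12.08 in control. Both peptide arrays were below control, by -0.66 for Met-ENK (1.58-fold) and -0.31 for β-END(1-9).

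Srsf1, the founding SR protein, had 12.57 with Met-ENK, 12.31 with β-END(1-9) and 12.73 in control. Srsf9, a shorter relative of it, had 10.23 with Met-ENK, 9.75 with β-END(1-9) and 10.24 in control. Both were lowest with β-END(1-9), at -0.42 and -0.49 from control. Srsf6 was nearer to control, at -0.17 with Met-ENK and -0.27 with β-END(1-9). Srsf3 differed by -0.16 with Met-ENK and by exactly 0 with β-END(1-9), Srsf4 by -0.14 and -0.06, and Srsf7 by -0.15 and -0.04. None of these 4 was above control on either peptide array. Srsf10, which acts as a repressor when dephosphorylated, had the highest SR signals, with 13.95 on the Met-ENK array, 13.94 on the β-END(1-9) array and 13.95 on the control array. Tra2a, the lowest of the expressed SR genes, had 10.02 on all 3 arrays, and its paralogue Tra2b had 12.93 on all 3. The SR genes as a group had a median difference of -0.14 for Met-ENK minus control, with 1 above, 7 below and 3 equal to control. So 63.6% of the 11 were below it, against 45.8% of all expressed genes. For β-END(1-9) minus control the median was -0.06, with 0 above, 8 below and 3 equal. So 72.7% of the 11 were below control, against 58.8% of all 6243 expressed genes. Most of the 11 have short genomic spans (gene length, introns included), under 14.4 kb. This is the lower cut when expressed genes are divided into 3 equal groups by span. Of the 2080 expressed genes in that shortest group, 1263 were below control on the Met-ENK array and 1255 on the β-END(1-9) array. Their median differences were -0.09 and -0.05 in that order. In the middle and longest groups, also of 2080 genes each, 910 and 683 were below control with Met-ENK. With β-END(1-9) these numbers were 1190 and 1229, close to that of the shortest group. The part of span in the SR shares was not tested.

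All 16 measured hnRNP genes were expressed, and 0 of them reached 1.5-fold in any comparison. Of all expressed genes, 5.81% were lower than control with Met-ENK and 1.81% with β-END(1-9), so over 16 genes nothing is read from this count. Hnrnpl, which binds CA-rich elements, was the furthest from control, with 12.53 on the Met-ENK array, 12.88 on the β-END(1-9) array and 12.97 on the control array. Hnrnph2, a binder of G-rich elements, had 12.23 with Met-ENK, 12.54 with β-END(1-9) and 12.52 in control, and its relative Hnrnph1 13.50, 13.52 and 13.72. In both Hnrnpl and Hnrnph2 the Met-ENK array stood alone on the low side. In the other direction Hnrnpm, known to promote mesenchymal splicing of Cd44, had 14.61 with Met-ENK, 14.47 with β-END(1-9) and 14.36 in control. The member with the highest signals was Hnrnpa3, at 16.14 with Met-ENK and 16.05 on both other arrays, and the lowest was Hnrnph3, at 12.13 with either peptide and 12.08 in control. Hnrnpa1, the classical silencer-binding repressor, had 15.10 and Hnrnpa2b1 15.69 on each of the 3 arrays. The hnRNP median was -0.02 for Met-ENK minus control and 0.00 for β-END(1-9) minus control, and all 16 differences from control with β-END(1-9) lay between -0.19 and 0.11.

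The RBM genes form a group by name and cover several roles, and 18 of the 26 measured were expressed. Rbm3, a cold-inducible RNA-binding protein, had 13.82 with Met-ENK, 13.97 with β-END(1-9) and 14.50 in control. Control was the highest array, and the differences from it were -0.68 for Met-ENK (1.60-fold) and -0.53 for β-END(1-9). Cirbp, the other cold-inducible protein of this kind, had 8.56 with Met-ENK, 8.45 with β-END(1-9) and 8.57 in control, and so was near level. Rbm39, a coactivator related to U2AF, had the highest Rbm signals, with 14.33 on both peptide arrays and 14.36 in control. Rbm48, a protein of the minor spliceosome, had the lowest expressed ones, at 8.95 with Met-ENK and 8.90 on both other arrays. Rbm17, known as SPF45 and involved in recognition of the 3′ splice site, had 10.82 with Met-ENK and 11.18 on both other arrays. It was the member furthest down for Met-ENK minus β-END(1-9), at -0.36.

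Further Rbm genes below control with Met-ENK were Rbm45 (-0.43) and Rbm22, a component of the catalytic spliceosome (-0.39). With β-END(1-9) they differed by -0.32 and -0.25, and Rbm26 by -0.33. Rbm33 was the third highest member for Met-ENK minus control, with 13.76 with Met-ENK, 13.46 with β-END(1-9) and 13.51 in control. The 3 related regulators Rbm5, Rbm6 and Rbm10, of which Rbm5 and Rbm10 are known for apoptosis-related exons, differed from control by 0.02, 0.10 and 0.18 with Met-ENK. With β-END(1-9) the same 3 differed by 0.00, 0.04 and -0.01, and Rbm6 (9.96 with Met-ENK, 9.90 with β-END(1-9), 9.86 in control) was thereby the third from the top. Rbm8a, the Y14 protein of the exon junction complex, had 10.31 and Rbm38, a p53 target, 9.13 on all 3 arrays. Magoh, which encodes the partner of Y14, had 12.83 with Met-ENK, 13.36 with β-END(1-9) and 13.67 in control, a Met-ENK minus control difference of -0.84.

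Mbnl1, an exon regulator that matures with differentiation, had 16.17 with Met-ENK, 15.61 with β-END(1-9) and 15.79 in control. Mbnl2 had 11.85, 11.55 and 11.65 in that order, and Mbnl3 11.23, 11.16 and 11.29. Each was lowest with β-END(1-9), and Mbnl1 and Mbnl2 were highest with Met-ENK. The Met-ENK minus β-END(1-9) difference of Mbnl1 was 0.56 (1.48-fold), just under 1.5-fold. It was 0.60 after a new quantile normalization and 0.45 with the trend along genomic span removed. Celf1, which opposes MBNL proteins on many exons, had 11.57 with Met-ENK, 11.42 with β-END(1-9) and 11.57 in control. Celf2 was level, with 9.30 on both peptide arrays and 9.29 in control.

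The epithelial regulator Esrp1 had 13.51 with Met-ENK, 13.44 with β-END(1-9) and 13.58 in control. Esrp2 had 10.90 with Met-ENK and 11.04 on both other arrays. The largest difference in this pair was -0.14. Qki, known for mesenchymal and glial splicing and for circular RNAs, had 15.87 with Met-ENK, 15.72 with β-END(1-9) and 15.70 in control. Rbfox2, the RBFOX gene found in many tissues, had 11.98 with Met-ENK, 11.78 with β-END(1-9) and 11.98 in control. Khdrbs1, which encodes the signal-regulated protein Sam68, had 11.74 with Met-ENK, 11.49 with β-END(1-9) and 11.74 in control. Celf1, Rbfox2 and Khdrbs1 thus had exactly 1 value on the Met-ENK and control arrays and a lower one with β-END(1-9).

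The 17 members at or below 7.6 were mostly genes known from other tissues, and all 17 stayed at or under the highest background probe set (7.57) on every array. Just below the limit were Rbm41 (mean 7.23), Rbm47 (7.04) and Rbm4b (7.02), and just above it Ptbp2 (8.33), Rbm48 (8.91) and Rbm38 (9.13). The gap between Rbm41 and Ptbp2 holds no member. Rbm41 had 7.39 with Met-ENK, 7.29 with β-END(1-9) and 7.02 in control, Rbm47 had 6.99, 7.07 and 7.07, and Rbm4b had 6.99, 6.96 and 7.11. The neuronal regulator Nova1 had 5.54, 5.22 and 5.79 in the same order. Rbfox1, of brain and muscle, had 4.76, 4.95 and 4.95, and the neuronal Rbfox3 4.70 on all 3 arrays. None of these differs from background by level. The brain-enriched genes Celf5 and Celf6 had 5.12, 5.12 and 5.02, and 4.42, 4.25 and 4.42, while Celf3 had 3.36 with Met-ENK and was 0.36 lower on both other arrays. Khdrbs2 had 4.23 and Khdrbs3 3.51 on every array. The remaining background members were the cardiac and muscle regulators Rbm20 and Rbm24, the germ cell gene Rbm46, Rbm28, Rbm43 and Srsf12. Rbm43 and Rbm46 passed 1.5-fold in a comparison, at signals that cannot be set apart from background.

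Exactly equal signals were frequent in these genes, as they were on the arrays in general. Met-ENK and control gave 1 value for 12 members (20.7%), against 20.7% of expressed genes. The β-END(1-9) and control arrays did so for 13 members (22.4%), against 23.8%, and the peptide arrays for 9 (15.5%), against 20.5%. On all 3 arrays 1 value was given for 6 expressed members, against 11.2% of expressed genes: Hnrnpa1, Hnrnpa2b1, Tra2a, Tra2b, Rbm8a and Rbm38. A difference of 0 in these genes is a property of the deposited values, and how it arose was not tested.

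Members with short genomic spans (annotated gene length, introns included) tended to lie lower with Met-ENK, as genes in general did. Across the 58 members, which are genes of 3 shared arrays and not replicates, Spearman's rho between span and the Met-ENK minus control difference was 0.41, against 0.32 across 6240 expressed genes with a span. For β-END(1-9) minus control it was -0.06 against 0.02. Srsf2 (3.24 kb) and Rbm3 (3.48 kb) have the shortest spans of the expressed members after Rbm8a (2.79 kb), which did not differ. With the trend along span removed, Srsf2 differed by -0.49 and Rbm3 by -0.51 with Met-ENK, so neither reached 1.5-fold. The positive control probe sets of the array, 399 in number, also had a median Met-ENK minus control difference of -0.23, and its part in these 2 values was not tested. For β-END(1-9) minus control the median of these control probe sets was -0.12, and for Met-ENK minus β-END(1-9) it was -0.11. Among the 14 members with a span above 39.3 kb, the upper cut when expressed genes are divided into 3 equal groups by span, 13 were higher with Met-ENK than with β-END(1-9), 0 were lower and Celf2 was equal. Of all 2080 expressed genes above that span, 1284 were higher and 370 lower. Their median differences were 0.18 for members and 0.07 for all. Srsf5, with a span of 7.47 kb, and Ptbp2, with 60.9 kb, kept differences of 0.70 and 0.97 between the peptides with the trend removed.

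**Figure D4:**
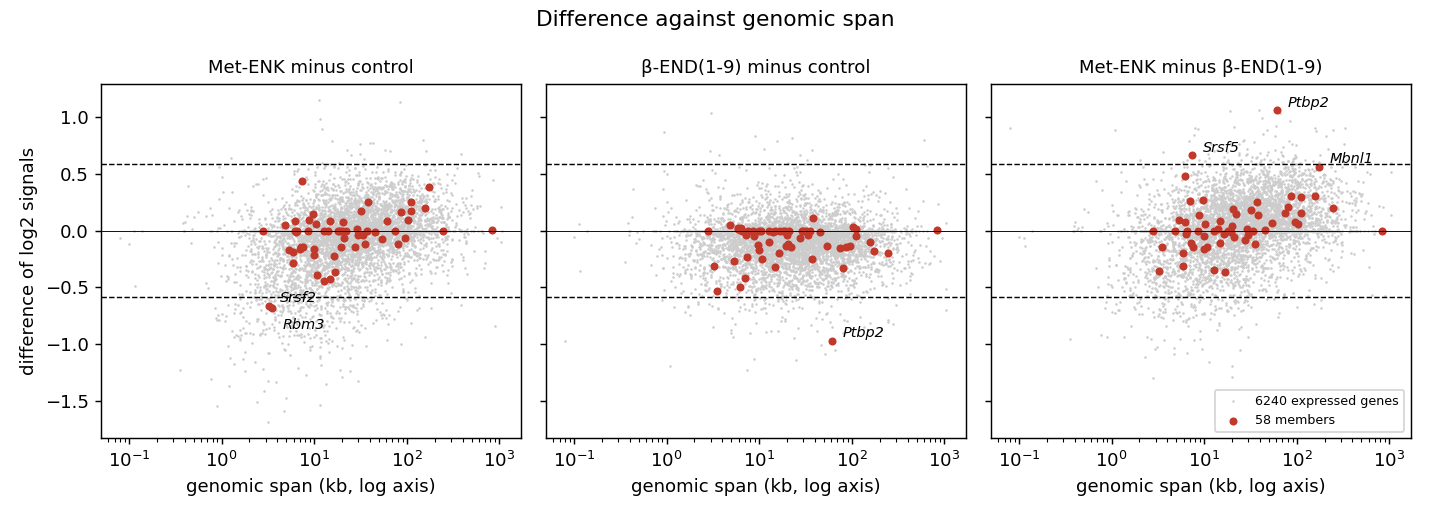
Differences of log2 signals (vertical axis) against genomic span in kb (log axis) for 58 members (red) among the 6240 expressed genes with a span (grey), with dashed lines at 1.5-fold. Srsf2 and Rbm3 sit at the short end with Met-ENK, Ptbp2 stands apart with β-END(1-9), and members with long spans lie mostly above 0 in the panel of Met-ENK minus β-END(1-9).

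Genes that act on or beside these regulators were described by the same counts. Of 16 measured genes of the list of SR protein kinases, phosphatases and import, 14 were expressed, 0 reached 1.5-fold against control with either peptide, and 1 was higher with Met-ENK than with β-END(1-9). The shares of all expressed genes were 5.81% and 1.81% lower than control, and 1.63% higher between the peptides. That one was Clk1, a nuclear kinase of SR proteins, with 10.81 with Met-ENK, 10.16 with β-END(1-9) and 10.60 in control, a difference of 0.64 between the peptides beside that of 0.66 for Srsf5. Its order over the 3 arrays, with Met-ENK highest and β-END(1-9) lowest, was that of Srsf5. Srpk1, a cytoplasmic SR protein kinase, had 12.54, 12.10 and 12.20, and Srpk2 had 10.50, 10.06 and 10.42. Both had that order too, as did Akt1, so it was found in 4 of the 14 (28.6%), against 16.5% of all expressed genes. The other 10 did not have it. Clk4 had 9.38 with Met-ENK, 9.41 with β-END(1-9) and 9.34 in control, while Clk3 (9.09, 9.05 and 9.19) and Dyrk1a (11.94, 11.84 and 12.20) were highest in control. The phosphatase genes Ppp1ca and Ppp1cc were lower with Met-ENK than with β-END(1-9), by -0.21 and -0.15. Ppp1cb and Ppp1r8 of the same list were near level between the peptides, at 0.03 and 0.004. The list median was 0.04 for Met-ENK minus β-END(1-9).

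Among 59 expressed genes for other splicing regulators, 2 were at least 1.5-fold lower with Met-ENK than in control and 1 with β-END(1-9), and 0 were higher. Over all expressed genes the lower shares were 5.81% for Met-ENK and 1.81% for β-END(1-9), and the higher shares 0.352% and 0.208%. The 2 genes were Raver1 (-0.94 with Met-ENK) and Zcrb1 of the minor spliceosome, which was lower with either peptide. Zcrb1 had 7.24 with Met-ENK, 7.71 with β-END(1-9) and 8.59 in control. Its Met-ENK signal was under the highest background probe set (7.57) and its β-END(1-9) signal close to it, so the size of neither difference is exact. Bclaf1, a protein with arginine-serine repeats, was 0.65 higher with Met-ENK than with β-END(1-9). In the list for nonsense-mediated decay and the exon junction complex, Magoh was the 1 gene of 12 expressed that was lower with Met-ENK, and 0 of 12 passed with β-END(1-9), beside 5.81% and 1.81% of all expressed genes. Of 21 expressed genes whose epithelial and mesenchymal isoforms are known targets of these regulators, 0 reached 1.5-fold in any comparison. Between the peptides 1.63% of all expressed genes were higher and 2.37% lower. Beside these and the shares against control given above, nothing is read from this count over 21 genes. Fgfr2 had 9.74 with Met-ENK, 9.91 with β-END(1-9) and 9.75 in control, Cd44 had 16.61, 16.31 and 16.33, and Ctnnd1 had 16.11, 15.65 and 15.73. Those are levels over the whole gene and do not show which isoform was made. The list medians were 0.15 for Met-ENK minus control, -0.05 for β-END(1-9) minus control and 0.23 for Met-ENK minus β-END(1-9), against 0.00, -0.04 and 0.00 over all expressed genes. Most of these 21 genes have spans above 39.3 kb. The 2080 expressed genes above that span had medians of 0.00, -0.04 and 0.07 in the same order. The part of span in the list medians was not tested.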

How the data were processed

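Per the submitters' processing notes, the authors made the deposited log2 signals with RMA and the Transcriptome Analysis Console and Affymetrix Expression Console. The sources used here name no version, annotation release or build. Of 24834 probe sets, 1646 controls were set aside. The platform annotation names 1 gene for 15049 clusters, several for 0 and none for 8139. No member has more than 1 probe set, and for other genes the set with the highest mean was taken. All 75 member symbols matched RefSeq (GRCr8), which also gave genomic spans and promoters.

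Groups came from sample titles, with 1 array each, so differences of log2 signals were described without any test, and the number of arrays limits their precision. Counts use genes with a mean above 7.6 and a difference of at least 1.5-fold. The counting was tested on simulated data whose differences lay well past the limit, which checks the arithmetic and not the calls near the limit. Signals on every array are given for expressed members past 1.5-fold (those at background level are only named), the 3 most different in each direction, the highest and lowest of the large families, all members of small families and those beside 7.6, with some further members by role. Members, lists and rules were chosen with earlier results of these data known. Motifs were chosen after the files were seen. Alternatives were median centring, quantile normalization, removal of the span trend (lowess, fraction 0.3, statsmodels 0.14.6), other filters, the mean of probe sets, and limits of 2-fold and of 0.32 on the log2 scale. Python 3.11.15 and pandas 2.3.3 were used.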

Additional observations from a re-analysis of the deposited data

Results flagged for a closer look

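In 2 expressed members the peptides lay on opposite sides of the control array and differed from each other by at least 1.5-fold. Of all expressed genes, 1.63% were higher and 2.37% lower by that fold with Met-ENK than with β-END(1-9). The order with Met-ENK highest and β-END(1-9) lowest was found in 16.5%. The share of all expressed genes meeting both conditions was not counted. Ptbp2 differed by 1.06 for Met-ENK minus β-END(1-9), with Met-ENK 0.09 from control and β-END(1-9) -0.97 from it. Srsf5 differed by 0.66, with the peptides 0.44 and -0.23 from control in that order. The β-END(1-9) signal of Ptbp2 lay close to the background probe sets, so its differences are not exact in size. With 1 array per condition the difference between the peptides was not tested in either gene.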

How the results depend on the processing

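Medians and counts of members stayed within 0.1 (log2) or 1.5 times of the reported values in most alternatives. The mean of probe sets and the filter asking for every array above the expression limit had to return the reported ones. Each member has 1 probe set, and all 58 expressed members lay above that limit on every array. Those alternatives therefore say nothing on the medians and counts of members. With the trend along span removed, 0 members were lower with Met-ENK than in control (all expressed genes 4.02%). Rbm3 (-0.51) and Srsf2 (-0.49) then dropped under 1.5-fold. With that setting the median of β-END(1-9) minus control turned to 0.024 (all expressed genes 0.024), and after a new quantile normalization to 0.045 (all 0.053), both against -0.039 as deposited. At 2-fold, 0 members were lower than control with Met-ENK (all expressed genes 0.721%) or with β-END(1-9) (0.112%). At that limit 1 member was higher with Met-ENK than with β-END(1-9) (0.0641%). At a limit of 0.32 on the log2 scale, 2 members were higher and 6 lower for Met-ENK minus control (all expressed genes 4.92% and 15.2%), 6 were lower for β-END(1-9) minus control (11.2%), and 4 were higher and 3 lower for Met-ENK minus β-END(1-9) (10.9% and 9.55%). Without a filter, 3 members were lower with β-END(1-9) (all named genes 1.97%), the additional ones being Rbm43 and Rbm46 at background level. Ptbp2 stayed past 1.5-fold after median centring, quantile normalization and removal of the span trend. It ranged from -1.01 to -0.88 for β-END(1-9) minus control and from 0.97 to 1.07 between the peptides. Srsf5 did so too, from 0.60 to 0.70 between the peptides. The filters and the mean of probe sets cannot change these values, since each member has 1 probe set, and so say nothing on them. No paired analysis was possible because each condition has 1 array, and for the same reason no array could be left out. Signals near the background probe sets limit what can be said of Ptbp2 with β-END(1-9).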
